A study of Rattus norvegicus with 9 samples.

Results

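Cyclic nucleotide phosphodiesterases were followed in Sertoli cell cultures from rats of 3 ages. The members were Pde4a, Pde4b, Pde4d, Pde3a, Pde3b, Pde1a, Pde1c and Pde10a, found by the gene name that the scanner files give to each probe. These 8 genes were represented by 12 of the 41012 probes of a whole-genome rat oligonucleotide array, and 9 of the 12 probes were bright enough to be tested. The cells, somatic cells that feed and support the germ cells of the testis, had been isolated at 5, 12 and 60 days of age. All cultures, whatever the age, were kept for 4 days and then given pulses of 50 ng/ml oFSH and 1e-07 M testosterone over 11 h. The strain of the rats is not given in the labels, and no culture without hormones was analysed here. Each age was measured on 3 one-colour arrays. The labels do not say whether these came from separate animals or cultures, so the p values below measure the spread between these samples, which may be technical.

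Phosphodiesterases hydrolyse the second messengers cAMP and cGMP and so end the signals that use them. The PDE4 enzymes are specific for cAMP, the PDE3 enzymes split cAMP and are inhibited by cGMP, the PDE1 enzymes are activated by calcium and calmodulin, and PDE10A splits both nucleotides. In the Sertoli cell, FSH acts through a receptor that raises cAMP, and in rat Sertoli cells FSH and cAMP are known to induce PDE4 transcripts, those of Pde4d and Pde4b among them.

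Each level is the log2 of a probe's signal over the 75th percentile of its array, fold changes are differences of these log2 levels with the standard error of limma's fit to all 9 arrays, and a probe is said to have risen or fallen when its adjusted p value in limma was under 0.05. On each array 49.1% to 63.0% of probes were well above background, and no member probe was saturated. The arrays of 1 replicate number, one per age, shared a slide. Synthetic spike-in RNA gave a different scale. With the median of 6 spike-ins as the scale of each array, the median log2 fold change of all probes became -1.24 for 12 against 5 days, 0.82 for 60 against 12 days and -0.39 for 60 against 5 days. On the 75th percentile scale it was 0.06, -0.14 and -0.05. Directions below are relative to the other probes of the array. The spike-in value is given where it ends the call of a gene whose fold change is given.

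The cultures carried Sertoli cell markers at every age. Sox9, a transcription factor of Sertoli cell identity, had mean levels of 2.00, 4.49 and 4.41 at 5, 12 and 60 days. Of 19 Sertoli markers on the array 18 were tested, 12 rose and 0 fell at 12 against 5 days, and the summed level of all 19 ran from 62.6 to 73.6 times the 75th percentile at 5 days, from 309 to 358 at 12 days and from 386 to 424 at 60 days. That count depends on the scale. The 12-day rises of the markers Inha and Fshr were not called on the spike-in scale (1.42 and 0.57, adjusted p = 0.264 and 0.616 in limma). Of all probes, 1550 were called higher at 12 against 5 days, but 87 on the spike-in scale. The other Sertoli markers were not followed on that scale. Germ cell markers also moved with age: the summed level of 19 spermatocyte markers was 2.08 to 2.55, 18.6 to 24.7 and 129 to 241 at the 3 ages, with 13, 5 and 0 of them below that background limit on all 3 arrays. Among these 13 were Sycp3, of the synaptonemal complex, and Ldhc, the germ cell lactate dehydrogenase. The 22 spermatid markers summed to 4.48 to 6.66, 4.95 to 7.13 and 35.4 to 70.3, with 15, 14 and 0 not above background. For peritubular myoid cells and fibroblasts, 19 markers summed to 1030 to 1840, 704 to 993 and 170 to 606, and 16 macrophage markers to 6.98 to 11.9, 2.46 to 2.87 and 3.93 to 4.29. Of the peritubular and fibroblast markers, Tpm2 was saturated on 7 arrays and Col3a1 on 3, and on those arrays the sums are lower bounds. The 10 duct epithelium markers summed to 56.9 or more at 5 days, 15.6 to 17.3 at 12 days and 35.1 to 73.7 at 60 days, and 6 of the 9 tested fell at 12 against 5 days (median log2 fold change -2.89). The 12 spermatogonia markers summed to 14.6 to 17.7, 26.7 to 43.4 and 73.5 to 104, with 4 of 8 tested higher and 1 lower at 12 against 5 days. The sums were 36.8 to 62.5, 49.8 to 60.8 and 68.4 to 87.1 for 11 Leydig cell markers, 11.8 to 13.4, 10.0 to 16.9 and 3.55 to 6.92 for 10 endothelial markers, and 0.477 to 1.07, 0.202 to 0.353 and 11.0 to 15.3 for 3 red blood cell markers. The part of these cell types in the results below was not tested, and in such bulk samples fewer cells of a type and less RNA per cell cannot be told apart.

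The clearest difference among the members was the rise of Pde4d, which encodes a cAMP-specific phosphodiesterase with many splice forms, between 5 and 12 days. Pde4d had 4 probes, and 3 of them showed it. The probe A_44_P311334, at chr2:41312606-41312665 in the rn4 build, had levels of -2.72, -2.34 and -2.88 on the 5-day arrays, -0.08, 0.24 and 0.82 on the 12-day arrays and -0.50, -0.15 and 0.45 on the 60-day arrays, in the order of replicates 1, 2 and 3. All 12-day and 60-day arrays were above all 5-day arrays, and the 12-day and 60-day arrays overlapped.

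The other 2 rising probes lay on rn4's chr18_random, the unplaced sequence assigned to chromosome 18, at chr18_random:268765-268824 (A_43_P11785) and chr18_random:266188-266247 (A_44_P683068). In the GRCr8 build, RefSeq places the transcript starts of Pde4d on chromosome 2, the chromosome of A_44_P311334 in rn4. The placements were not reconciled here, and distances on chr18_random are those of rn4 only. A_43_P11785 had levels of -3.41, -3.19 and -2.34 at 5 days, 0.60, 0.12 and 0.74 at 12 days and -0.86, 0.47 and 0.29 at 60 days. A_44_P683068 had levels of -4.51, -3.92 and -4.11 at 5 days, where 1 of the 3 arrays lay well above background, 0.38, -0.98 and -0.54 at 12 days and -1.61, -0.76 and -1.03 at 60 days. In both, as in A_44_P311334, every 5-day array was below every array of the older ages.

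The log2 fold change of Pde4d at 12 against 5 days was 2.97 ± 0.38 in A_44_P311334, 3.47 ± 0.44 in A_43_P11785 and 3.80 ± 0.42 in A_44_P683068 (adjusted p = 0.000602, 0.000614 and 0.000273 in limma), which is 7.86-fold, 11.1-fold and 13.9-fold. At 60 against 5 days the values were 2.58 ± 0.38, 2.95 ± 0.44 and 3.04 ± 0.42, all called. At 60 against 12 days they were -0.39 ± 0.38, -0.52 ± 0.44 and -0.75 ± 0.42, with adjusted p values of 0.508, 0.448 and 0.227, and they turned positive on the spike-in scale. The rises at 12 and at 60 against 5 days were called without any 1 array and without any 1 replicate number. On the spike-in scale the 12-day rises were 1.67, 2.17 and 2.50 and were no longer called (adjusted p = 0.208, 0.104 and 0.0525), and of the 60-day rises that of A_44_P311334 was not called there (2.24, adjusted p = 0.0632).

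**Figure D1:**
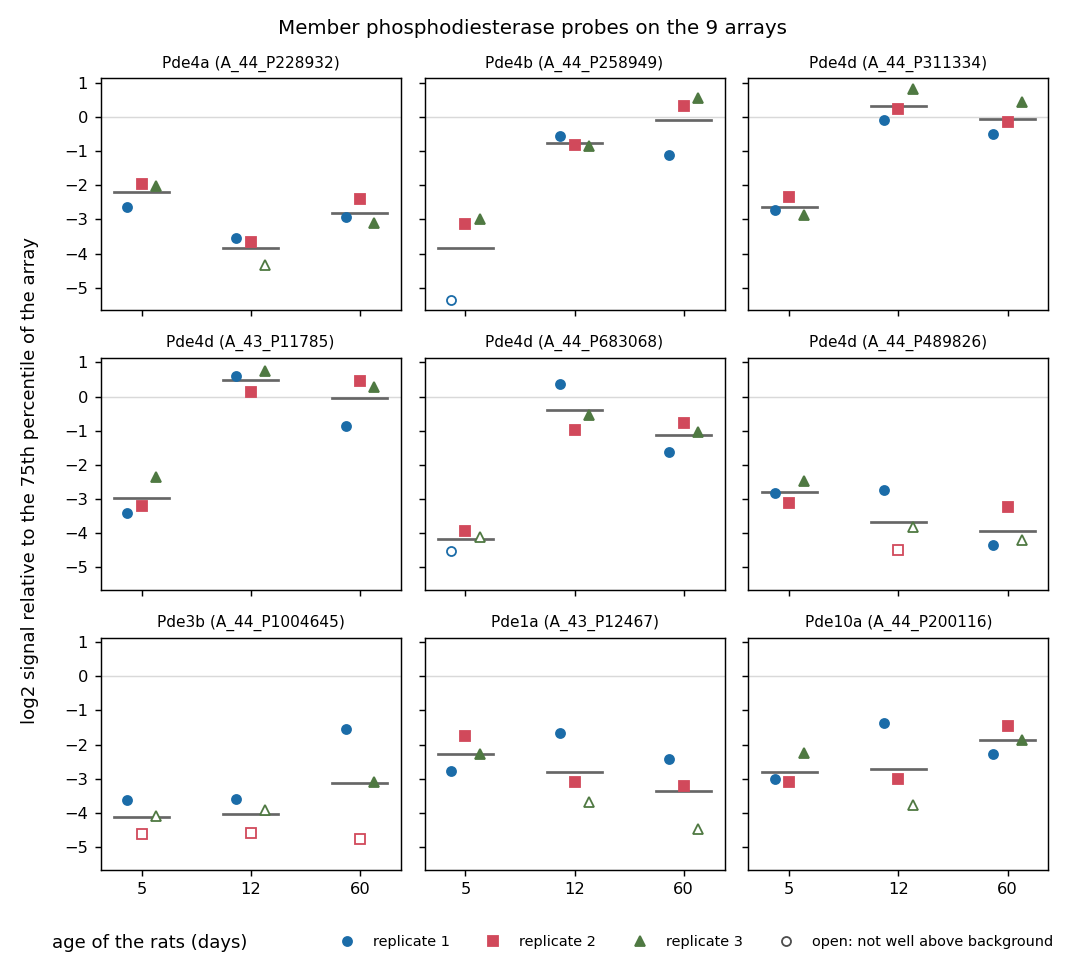
Log2 signal relative to the array's 75th percentile (vertical axis) of the 9 member probes tested, against the age of the rats in days. Each symbol is 1 array, its shape the replicate number, open where the probe was not well above background, and the grey line is the mean of the 3 arrays. In 3 Pde4d probes and in Pde4b every 5-day array lies below every 12-day and 60-day array, and in Pde4a the 12-day arrays, between -4.34 and -3.53, lie lowest.

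In the remaining Pde4d probe no rise was called. A_44_P489826 lies at chr18_random:264941-265000 on the same strand, 1247 bases before the start of A_44_P683068, which itself starts 2577 bases before A_43_P11785. The scanner files of replicate 3 name it Pde4d and describe its target as a splice variant of the gene, whereas those of replicate 1 give only a transcript identifier. The sequences of the 2 probes that differed most are shown because they carry the same gene name and only the first was called, in lower case throughout.

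Pde4d A_44_P683068: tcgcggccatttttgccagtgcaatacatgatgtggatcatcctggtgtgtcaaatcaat
Pde4d A_44_P489826: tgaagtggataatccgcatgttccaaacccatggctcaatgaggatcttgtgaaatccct

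A_44_P489826 had levels of -2.82, -3.12 and -2.46 at 5 days, -2.72, -4.50 and -3.81 at 12 days and -4.34, -3.22 and -4.21 at 60 days, well above background on 3, 1 and 2 arrays of these ages. The ages overlapped, and no contrast was called (log2 fold change -0.88 ± 0.49 with adjusted p = 0.327 at 12 against 5 days, and -1.12 ± 0.49 with adjusted p = 0.102 at 60 against 5 days). The difference between probes was tested on each array, which removes any scaling of the array. The level of A_44_P683068 minus that of A_44_P489826 changed by 4.67 log2 units at 12 against 5 days and by 4.17 at 60 against 5 days (exact permutation test over the 9 arrays, 2-sided, p = 0.00714, adjusted p = 0.0429 over 6 pairs of probes). The pairs of A_44_P489826 with A_43_P11785 and A_44_P311334 changed by 4.35 and 3.85 at 12 against 5 days, with exact p values of 0.0286 and 0.0321, and missed the threshold after adjustment (both 0.0643). Among the 3 rising probes the exact p values were 0.343 to 0.714, and their differences changed by at most 0.82 in size. The smallest p that 9 arrays in 3 groups allow is 0.00357. With ages exchanged only within the 3 slides, which leaves 36 splits and a smallest p of 0.0278, the first pair had that smallest p and was no longer called (adjusted p = 0.167). Over 6 pairs, 1 pair alone at that smallest p cannot be called, so this test does not decide whether the pairing ends the call.

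Pde4b, the other PDE4 gene known to respond to FSH in rat Sertoli cells, rose as well. Its single probe, A_44_P258949 at chr5:123533105-123533164 in rn4, is printed here because its rise rests on this sequence alone.

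Pde4b A_44_P258949: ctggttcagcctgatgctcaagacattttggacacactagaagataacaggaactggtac

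Its levels were -5.35, -3.14 and -2.99 at 5 days, the first of them not well above background, then -0.56, -0.83 and -0.85 at 12 days and -1.11, 0.31 and 0.55 at 60 days. All arrays of the older ages were above all 5-day arrays, and the 12-day values lay within the range of the 60-day values. The log2 fold change was 3.08 ± 0.63 at 12 against 5 days (adjusted p = 0.00933), 3.74 ± 0.63 at 60 against 5 days (adjusted p = 0.000857) and 0.66 ± 0.63 at 60 against 12 days (adjusted p = 0.502). Without the 5-day array of replicate 1, which was below background, the rises were 2.32 and 2.98 and still called. Without replicate 2 the 12-day rise was 3.46 and no longer called (adjusted p = 0.069), and on the spike-in scale it was 1.78 (adjusted p = 0.185). Without replicate 1 the difference of 60 against 12 days, 1.27, was called (adjusted p = 0.0475).

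Pde4a moved the other way. The probe A_44_P228932 of this cAMP-specific enzyme, at chr8:20240912-20240971, had levels of -2.64, -1.95 and -2.01 at 5 days, -3.53, -3.67 and -4.34 at 12 days and -2.92, -2.39 and -3.09 at 60 days. The 12-day arrays were below all others, 1 of them not well above background, and the 5-day and 60-day arrays overlapped. At 12 against 5 days Pde4a fell by 1.64 on the log2 scale (SE 0.37, adjusted p = 0.0152), 3.12-fold. At 60 against 12 days the difference was 1.04 ± 0.37 with adjusted p = 0.0643, and with the replicate number as a block it was called (adjusted p = 0.0363). Of the called differences of members, the fall at 12 days was lost most often when arrays were left out. Without replicate 2 or replicate 3 it was -1.60 and -1.30 (adjusted p = 0.154 and 0.157), and without the 5-day array of replicate 2 or 3 or the 12-day array of replicate 3 its adjusted p was 0.0661, 0.052 and 0.0554. On the spike-in scale it was larger, -2.94, and called (adjusted p = 0.0155).

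Whether members of the PDE4 subfamily changed differently over the ages was tested directly. The test does not ask for opposite directions, since a rise of Pde4d or Pde4b alone could give such a difference. At 60 against 5 days Pde4a itself was not called (-0.60 ± 0.37, adjusted p = 0.243 in limma). The level of Pde4a minus that of Pde4d (A_44_P311334) on the same array changed by -4.62 log2 units at 12 against 5 days and by -3.18 at 60 against 5 days (exact permutation test, p = 0.00714, adjusted p = 0.0214 over 3 pairs). Pde4a minus Pde4b changed by -4.72 and -4.34 (exact p = 0.0214, adjusted p = 0.0321). Pde4b minus Pde4d changed by 0.10 at 12 against 5 days and by 1.16 at 60 against 5 days, with SDs of 1.30, 0.59 and 0.54 over the 3 arrays of 5, 12 and 60 days, and the exact test gave p = 0.282. With ages exchanged only within slides, neither pair with Pde4a was called (exact p = 0.0278 with adjusted p = 0.0833 for Pde4d, and exact p = 0.0833 with adjusted p = 0.125 for Pde4b). Over 3 pairs, 1 pair alone at the smallest p of 0.0278 cannot be called. These differences within an array do not depend on the scale chosen. The same test could not be made for PDE3 or PDE1, where 1 gene of each pair was too dim.

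**Figure D2:**
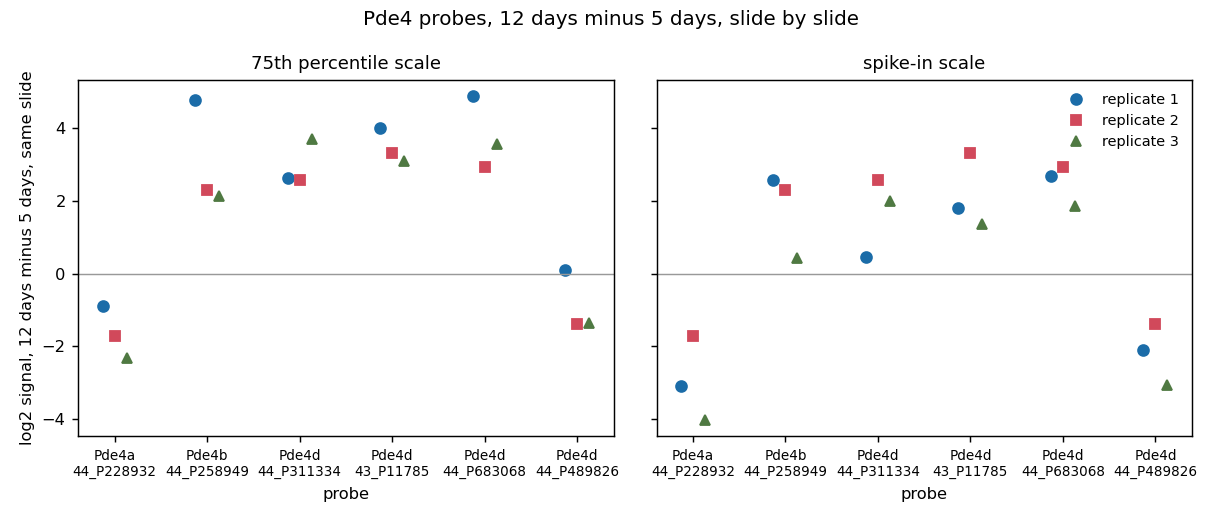
Differences in log2 signal, 12 days minus 5 days, between arrays of the same slide (vertical axis) for the 6 probes of Pde4a, Pde4b and Pde4d (horizontal axis), on the 75th percentile scale (left) and the spike-in scale (right), with 1 symbol per slide. Pde4b and 3 Pde4d probes are positive on all 3 slides on both scales, between 2.14 and 4.89 on the left and between 0.44 and 3.31 on the right, and Pde4a is negative on all 3.

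Slide by slide, the 3 Pde4d probes were higher at 12 than at 5 days by 2.59 to 4.89 log2 units and Pde4b by 2.14 to 4.79. The spike-ins shifted by 2.19, 0.00 and 1.70 between these arrays on slides 1, 2 and 3. On slide 2, with a shift of 0.00, Pde4d was higher by 2.58 (A_44_P311334), 3.31 (A_43_P11785) and 2.93 (A_44_P683068) and Pde4b by 2.30 on the spike-in scale. On slide 1 the rise of A_44_P311334 came down to 0.45 on that scale, and on slide 3 that of Pde4b came down to 0.44.

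Over all members, 5 of the 9 probes tested were called at 12 against 5 days, 4 higher and 1 lower, while 11.8% of all 26415 probes tested were called, 5.87% higher and 5.89% lower. That balance depends on the scale: at 12 against 5 days 1550 probes were called higher and 1557 lower, but on the spike-in scale 87 higher and 2255 lower, where the 1 member called was Pde4a, lower. At 60 against 12 days limma called 0 of the 9, against 24.2% of all probes (3150 higher and 3240 lower, on the spike-in scale 2931 and 400). Only Pde4a had an unadjusted p under 0.05, and the fit with a replicate block called that 1 probe. At 60 against 5 days 4 of the 9 were called, all higher, against 34.3% of all probes called and 17.2% called higher (4537 higher and 4514 lower, on the spike-in scale 1791 and 2618, with 3 members higher). The moderated F-test over the 3 ages called 5 of the 9, against 35.3% of all probes. Of the called probes 3 belong to Pde4d, so that the calls stand for 3 genes at 12 days and 2 genes at 60 against 5 days. The median log2 fold change of the 9 probes was 0.08, -0.25 and 0.97 in these 3 contrasts, against 0.06, -0.14 and -0.05 over all probes tested. Normexp background correction could be run only on the 6 arrays of replicates 1 and 3. It adds an offset of 50 intensity units to every signal, which by construction shrinks the fold changes of dim probes. On the 5-day arrays of replicates 1 and 3 the processed signals of Pde4b and the 3 rising Pde4d probes were 3.69 to 55.4. With it 0 members were called in any contrast, and the log2 fold changes at 12 against 5 days were 1.04, 1.39 and 1.25 in the 3 Pde4d probes and 0.90 in Pde4b, and 0 of all probes were called there (473 had an unadjusted p under 0.05). Of the calls given below for other genes of the pathway, normexp kept those of Adcy2 (-5.24, adjusted p = 0.0106) and Fos (-3.56, adjusted p = 0.0381) at 60 against 5 days and ended the others, in each case without a change of sign.

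**Figure D3:**
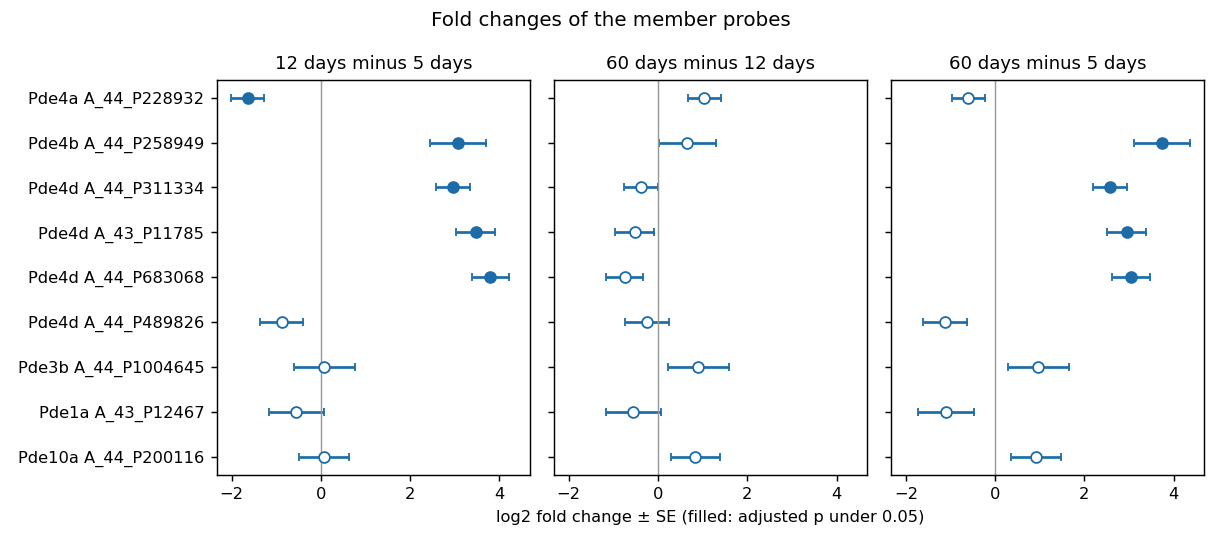
Log2 fold changes with standard errors (horizontal axis) of the 9 member probes tested, in 3 panels for 12 minus 5, 60 minus 12 and 60 minus 5 days, filled where the adjusted p was under 0.05. Pde4b and 3 Pde4d probes lie between 2.97 and 3.80 in the first panel and between 2.58 and 3.74 in the last, and no probe is filled in the middle one. On the spike-in scale the rises in the first panel kept their sign without being called.

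The PDE3, PDE1 and PDE10 genes gave low signals. Pde3a (A_43_P11923, chr4:178930231-178930290) was not well above background on any of the 9 arrays, nor were both probes of Pde1c (A_44_P292765, chr4:84988132-84988191, and A_44_P538328, chr4:84937189-84937248). These 3 probes were left out of the tests. Pde3b (A_44_P1004645, chr1:172576876-172576935) had levels of -3.62, -4.63 and -4.09 at 5 days, -3.59, -4.59 and -3.92 at 12 days and -1.54, -4.76 and -3.11 at 60 days, with 1, 1 and 2 arrays well above background. The replicate 2 array was the lowest at each age, and the 60-day arrays spanned the range of the others. Its log2 fold change at 60 against 5 days was 0.97 ± 0.68 (adjusted p = 0.306), and without the 60-day array of replicate 2 it was 1.79 and called (adjusted p = 0.0391).

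Pde1a, a calmodulin-dependent enzyme (A_43_P12467, chr3:62650113-62650172), had levels of -2.76, -1.76 and -2.29 at 5 days, -1.65, -3.11 and -3.69 at 12 days and -2.41, -3.22 and -4.47 at 60 days. The ages overlapped, and the log2 fold change at 60 against 5 days was -1.10 ± 0.62 (adjusted p = 0.20). Without replicate 1 it was -1.82 and called (adjusted p = 0.0477). Pde10a (A_44_P200116, chr1:46393649-46393706) had levels of -3.02, -3.10 and -2.25 at 5 days, -1.38, -3.02 and -3.76 at 12 days and -2.29, -1.46 and -1.88 at 60 days. The 12-day arrays spread over the widest range, 1.22 in SD against 0.42 at 60 days, and the difference of 60 against 12 days was 0.84 ± 0.56 (adjusted p = 0.32). Without the 12-day array of replicate 1 it was 1.51 and called (adjusted p = 0.0426).

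Of 15 other phosphodiesterase genes on the array 10 were tested, of which 0 rose and 1 fell at 12 against 5 days, 2 rose and 3 fell at 60 against 12 days, and 2 rose and 2 fell at 60 against 5 days, beside the shares of all probes given above. Their median log2 fold changes in these contrasts were -0.23, 0.41 and -0.05. Pde9a, a cGMP-specific enzyme, had mean levels of 1.82, -1.10 and -4.08 at 5, 12 and 60 days and fell by 2.92 at 12 against 5 days (SE 0.41, adjusted p = 0.00113). It fell by a further 2.98 at 60 against 12 days (SE 0.41, adjusted p = 0.000413), which was not called on the spike-in scale (-2.02, adjusted p = 0.125).

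Pde5a, also specific for cGMP, had 2 probes, neither of them well above background on any 60-day array. The brighter, A_43_P15466, was well above background on all 5-day and 12-day arrays, so that at 60 days it was at least 13.8-fold lower than at 5 days and at least 6.05-fold lower than at 12 days (adjusted p = 2.83e-06 and 3.12e-05). A bound of this kind sets the dim age to the lowest signal that was well above background on each of its arrays. Pde11a, which splits both nucleotides, was at least 15.0-fold higher at 60 than at 5 days in the probe A_44_P214017 (adjusted p = 2.63e-05). Its other probe, A_43_P15462, was not well above background on any array (mean levels -6.09, -6.16 and -6.64 at 5, 12 and 60 days) and was not tested. Pde7b, a cAMP-specific enzyme, was at least 2.14-fold higher at 60 days than at either younger age. Pde7a, the closest relative of Pde7b, fell by 1.41 at 60 against 12 days (SE 0.42, adjusted p = 0.0304). That call was lost without replicate 2 or 3 (-1.16 and -1.14, adjusted p = 0.23 and 0.233), without any 1 of 5 single arrays, with 60-day and 12-day arrays fitted alone and on the spike-in scale (-0.45, adjusted p = 0.80). Beside the changes at 60 days stand the summed cell type markers given above, whose part was not tested. Those of spermatocytes and spermatids were higher at 60 than at 5 days, and those of peritubular myoid cells and fibroblasts lower.

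**Figure D4:**
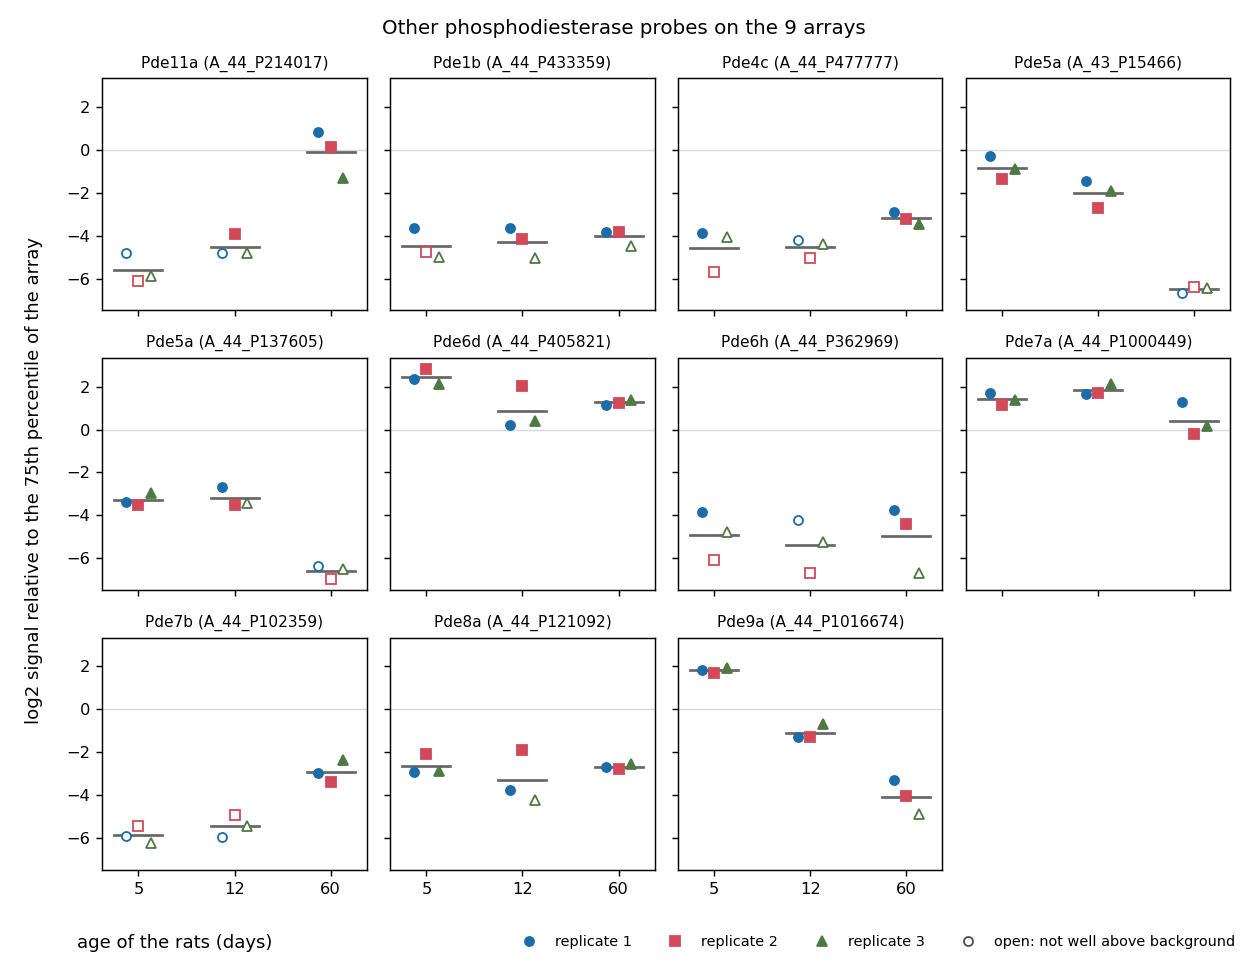
Log2 signal relative to the array's 75th percentile (vertical axis) of 11 probes of 10 other phosphodiesterase genes against the age of the rats in days, drawn with 1 symbol per array, open where not well above background, and a grey line for the mean. Pde9a steps down at each age with means of 1.82, -1.10 and -4.08, both Pde5a probes are open at 60 days, and the Pde11a probe shown and Pde7b are highest there.

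Among 24 genes of cyclic nucleotide synthesis 17 were tested, of which 1 rose and 4 fell at 12 against 5 days, 4 rose and 5 fell at 60 against 12 days, and 4 rose and 7 fell at 60 against 5 days. Over all probes 11.8%, 24.2% and 34.3% were called in these contrasts. The median log2 fold changes of the list were -0.18, -0.32 and -0.46, against 0.06, -0.14 and -0.05 over all probes. The membrane adenylyl cyclase Adcy2 had mean levels of 5.03, 2.39 and -2.33 at 5, 12 and 60 days and fell by 7.36 at 60 against 5 days (SE 0.50, adjusted p = 2.13e-06). Its fall of 2.64 at 12 against 5 days was not called without replicate 1 (-2.21, adjusted p = 0.13). Adcy5 and Adcy6, also membrane cyclases, fell by 4.30 and 3.32 at 60 against 5 days, and Npr2, the receptor guanylyl cyclase for C-type natriuretic peptide, fell by 5.54. Adcy10, the soluble bicarbonate-sensitive cyclase known from sperm, was at least 20.7-fold higher at 60 than at 5 days (adjusted p = 7.11e-07).

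Of 30 effectors and scaffolds 27 were tested, of which 0 rose and 1 fell at 12 against 5 days, 3 rose and 4 fell at 60 against 12 days, and 6 rose and 5 fell at 60 against 5 days, with medians of -0.05, 0.13 and 0.00, beside the same shares of all probes. Pde4dip, the scaffold myomegalin that binds PDE4D, had mean levels of -4.14, -3.83 and -0.05 at 5, 12 and 60 days and rose by 3.78 ± 0.43 at 60 against 12 days (adjusted p = 0.000123). It did not follow the 12-day rise of Pde4d (0.31 ± 0.43, adjusted p = 0.763). Rapgef3, the cAMP-activated exchange factor Epac1, and Bves, a cAMP-binding Popeye domain protein, were at least 9.16-fold and 2.00-fold lower at 60 than at 12 days (adjusted p = 0.000825 and 0.000188), with 3 and 2 of the 12-day arrays above background. On the spike-in scale the fall of Bves was not called (-2.08, adjusted p = 0.112). Akap1, which anchors protein kinase A to mitochondria, fell by 2.80 at 60 against 5 days (adjusted p = 0.000188), and the anchor Akap5 rose by 2.46 (adjusted p = 0.00251), the second of these not on the spike-in scale (2.12, adjusted p = 0.0868).

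Of 22 genes listed for the cAMP response 20 were tested. Besides genes that respond to cAMP, the list holds the transcription factors Creb1, Creb3 and Atf1 and the coactivators Crtc1, Crtc2 and Crtc3. At 12 against 5 days 4 of the 20 rose (Fshr, Inha, Inhbb and Nr4a3) and 2 fell. Fshr, Inha and Inhbb are also on the Sertoli marker list, so their rises count in both lists. At 60 against 12 days 1 rose (Creb1) and 6 fell (Crtc1 among them). At 60 against 5 days 7 rose (Creb1 and Creb3 among them) and 4 fell. Of all probes 11.8%, 24.2% and 34.3% were called, in near equal numbers higher and lower on the 75th percentile scale. The medians of the list were 0.62, -0.62 and -0.20. The orphan nuclear receptor Nr4a3 rose by 4.53 ± 0.36 at 12 against 5 days (adjusted p = 5.11e-05) and fell by 3.43 at 60 against 12 days (SE 0.36, adjusted p = 7.53e-05). Inha, the inhibin alpha subunit, rose by 2.72 ± 0.30 at 12 days (adjusted p = 0.000293), a call that the spike-in scale ended (1.42, adjusted p = 0.264). Fshr, the FSH receptor, was well above background on 1 of the 5-day arrays and on all older ones, and rose by 2.78 ± 0.50 at 60 against 5 days (adjusted p = 0.00138). Its rise of 1.87 ± 0.50 at 12 days (adjusted p = 0.0359) was not called without replicate 1 or 2 (adjusted p = 0.258 and 0.155), without any 1 of 5 single arrays, without a filter on dim probes (adjusted p = 0.0522), with the 2 ages fitted alone (adjusted p = 0.0645) or on the spike-in scale (0.57, adjusted p = 0.616). Fos, an immediate early gene, and Areg, which encodes the growth factor amphiregulin, fell by 4.62 and 2.42 at 60 against 5 days (adjusted p = 2.48e-05 and 0.00336).

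Over the 9 arrays, the genes whose levels followed Pde4d (A_44_P311334) most closely among 11475 candidates with a current symbol were Pyy, which encodes peptide YY, Pard6b, of the cell polarity complex, and Mt3, a metallothionein, with Pearson's r of 0.986, 0.983 and 0.979. Their log2 fold changes at 12 against 5 days lay between 2.35 and 3.25, beside 2.97 for Pde4d. For Pde4b they were the mitochondrial carrier Slc25a30, the organic anion transporter Slco3a1 and Entrep1 (r = 0.984, 0.979 and 0.977), and for Pde4a the heparan sulfate sulfatase Sulf2, the chemokine Ccl7 and the GTPase Rab13 (r = 0.974, 0.946 and 0.937). Pyy and Sulf2 were each well above background on 6 of the 9 arrays, so that part of their r rests on background values. The r values describe 9 arrays of 3 ages that share slides, and the genes were picked as the highest of many.

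RefSeq gave 16 promoter windows for 7 of the 8 members in the GRCr8 build, each from 250 bases before to 50 bases after a transcript start. They were searched on both strands for the cAMP response element TGACGTCA and for its core TGACG, which the full element contains. The full element was in none of the 16 windows and in 1.83% of the 33469 windows of all genes. The core was in 2 of 5 windows of Pde4d, 0 of 2 of Pde4b, 2 of 4 of Pde4a and 1 of 2 of Pde10a, and in 21.2% of all windows. Both Pde4d windows with a match and 1 of Pde4b are printed because probes of these genes rose. The core is in capitals on whichever strand it was found. The windows were not matched to the probes. A window shown may therefore belong to a transcript read by A_44_P489826, in which no rise was called.

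Pde4d chr2:42592499-42592798, + strand: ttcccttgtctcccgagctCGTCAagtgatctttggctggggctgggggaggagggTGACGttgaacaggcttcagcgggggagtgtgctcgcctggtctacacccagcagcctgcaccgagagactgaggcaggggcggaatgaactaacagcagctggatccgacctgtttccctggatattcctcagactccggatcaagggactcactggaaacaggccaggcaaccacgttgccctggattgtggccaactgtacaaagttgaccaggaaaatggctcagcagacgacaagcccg
Pde4d chr2:42767367-42767666, + strand: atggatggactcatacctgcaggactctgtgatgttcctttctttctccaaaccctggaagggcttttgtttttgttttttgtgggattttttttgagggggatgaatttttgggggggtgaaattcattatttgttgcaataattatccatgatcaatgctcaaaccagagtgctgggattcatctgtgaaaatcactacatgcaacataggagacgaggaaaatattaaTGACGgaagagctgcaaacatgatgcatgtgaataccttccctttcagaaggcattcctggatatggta
Pde4b chr5:122028706-122029005, + strand: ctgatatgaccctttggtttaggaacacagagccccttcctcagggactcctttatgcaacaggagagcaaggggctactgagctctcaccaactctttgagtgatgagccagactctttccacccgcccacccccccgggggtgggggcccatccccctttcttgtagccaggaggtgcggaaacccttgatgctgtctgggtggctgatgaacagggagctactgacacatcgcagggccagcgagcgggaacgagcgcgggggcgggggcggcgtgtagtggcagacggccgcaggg

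The first Pde4d window holds 2 matches and the second 1, and the Pde4b window holds none. A match describes these letters only, and the arrays do not show which transcript start was used.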

How the data were processed

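Per the labels' protocols, RNA of Sertoli cells (3 samples for each of 3 ages) was labelled with Cy3 from an oligo-dT primer and hybridised to whole-genome arrays. Per the submitters' processing notes, the authors read the spots with Agilent Feature Extraction. Version 9.5.3.1 with a G2505B scanner was used for replicate 1 and version 10.5.1.1 with a G2505C scanner for replicates 2 and 3, per the file headers. Per the file headers, the processed intensity has the array's background subtracted and is not scaled between arrays. The authors' series table is in log2, each deposited column equal to the log2 processed signal minus the 75th percentile of its array within 0.01 for 99.681% to 99.785% of probes; its column medians were -3.484 to -3.184. Gene names, quality marks and probe sequences are other columns of the deposited scans. Labels primed with oligo-dT read mostly the 3' end, so that splice forms are seen only where a probe lies in them.

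Here the processed signal was taken to log2, minus the log2 of its array's 75th percentile (150.1 to 437.5 intensity units). Of 41012 probes, 506 with a quality failure on any array were left out, and 26415 that were well above background on at least 2 of 3 arrays of 1 age were tested with limma 3.58.1 in R 4.3.3 (1 mean per age, 6 residual and 4.688 prior degrees of freedom, 2-sided moderated tests and F-test, Benjamini-Hochberg adjustment over all probes tested). The fit was also run on simulated data with independent normal errors and no slide effect, so that simulation does not bear on the pairing of the arrays. Probes of 1 gene were compared with an exact permutation test of the 280 ways to split 9 arrays into 3 groups of 3, and, as an alternative chosen after seeing the data, of the 36 splits within slides. The deviations of arrays of the same replicate number, which share a slide, correlated at 0.165 to 0.612, and those of different numbers at -0.522 to 0.096, so the numbers pair the arrays. Precision is limited by having 3 arrays per age.

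The members, the 4 pathway lists and the 10 cell type lists were chosen with earlier results of these data known. Every member probe is named. From each pathway list the 5 genes with the largest called change are named, using the probe with the highest mean, and for each member gene called by the F-test the 3 genes with the highest Pearson's r. RefSeq gave a current symbol for 10973 probes by accession, 5649 by symbol and 3862 by an older symbol, and the other 20528 keep their file name. Probe positions are those of the replicate 3 files in rn4. Without an annotation of that build, exons and untranslated regions are not stated. Plots were drawn with matplotlib.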

Additional observations from a re-analysis of the deposited data

How the results depend on the processing

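At 12 against 5 days 5 member probes were called, on the spike-in scale 1, with normexp background correction 0, with probes well above background on all 9 arrays 2 of the 2 left, with 1 probe per gene 3, and 3 to 5 when a replicate number or an array was left out. At 60 against 12 days the count was 0 in limma's fit of all 9 arrays, 1 with the replicate block and 0 to 1 in the leave-outs. At 60 against 5 days it was 4, against 0 with normexp, 2 with probes above background on all arrays, 2 with 1 probe per gene and 4 to 5 in the leave-outs. The F-test counts were 5, 0, 2 and 3 in the same order, and 4 to 5 in the leave-outs. Fewer probes were tested under the stricter filter and with 1 probe per gene. Normexp, with an offset of 50 that by construction shrinks fold changes of dim probes, could be run only on the 6 arrays of replicates 1 and 3 and called 0, 1 and 143 of all probes in the 3 contrasts. How much of the loss comes from the offset was not tested. Without a filter the added call at 60 against 5 days was a Pde1c probe not well above background on any array. Over 27 fold changes of member probes, 517 of 564 alternative values kept their direction and side of the threshold, 20 lost the call, 5 gained it and 22, all uncalled, changed sign. On the spike-in scale the values at 60 against 12 days became 0.57 (A_44_P311334), 0.44 (A_43_P11785), 0.20 (A_44_P683068) and 0.71 (A_44_P489826) for Pde4d and 0.41 for Pde1a, and those at 12 against 5 days -1.22 for Pde3b and -1.23 for Pde10a. With normexp they became -0.11 for Pde4b and -0.23 for Pde10a at 60 against 12 days, 0.01 for A_44_P489826 and 0.25 for Pde1a at 12 against 5 days, and 0.10 for Pde1a at 60 against 5 days. In the leave-outs the signs that turned were those of A_44_P489826 (-1.01 to 0.44) and Pde1a (-1.03 to 0.03) at 60 against 12 days, and of Pde3b (-0.18 to 0.36) and Pde10a (-0.71 to 0.86) at 12 against 5 days. Adjusted p was 1.00 with normexp for every member, and over the other alternatives it ran from 0.000271 to 0.208 for the 3 rising Pde4d probes, 0.00251 to 0.185 for Pde4b and 0.00842 to 0.157 for Pde4a at 12 against 5 days, from 0.000174 to 0.0632 (Pde4d) and 0.000225 to 0.013 (Pde4b) at 60 against 5 days, and from 0.0363 to 0.308 for Pde4a at 60 against 12 days. Apart from Pde4a at 60 against 12 days, the replicate block changed no member's call. In settings chosen after seeing the data, the exact tests with the replicate block (ages exchanged within slides) called 0 of the 6 and 0 of the 3 probe pairs, against 1 and 2 (adjusted p at least 0.167 and 0.0833), while quantile normalization and the deposited table left 1 and 2 called. Within slides, 1 pair alone at the smallest p of 0.0278 cannot be called over 6 or over 3 pairs. With 6 arrays the exact tests cannot go below 0.0667. The genes called in the 4 pathway lists numbered 13, 28 and 37 in the 3 contrasts. On the spike-in scale they were 13 at 60 against 12 days and 20 at 60 against 5 days, and without replicate 1, 2 or 3 they were 4 to 9, 15 to 21 and 26 to 33.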
